A study of Homo sapiens with 2 samples.

Results

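The 38 genes described here encode nuclear receptors and were taken by gene symbol from a family list, out of 23709 genes in the table. All 38 were present. They were measured in 2 poly(A) RNA libraries of Caco-2, a human colorectal adenocarcinoma line obtained from ATCC and grown in DMEM with fetal bovine serum, penicillin/streptomycin and ciprofloxacin. The mRNA library came from total RNA and the RNC-mRNA library from RNA bound in ribosome-nascent chain complexes, which is meant to hold the messages under translation. No treatment, time point or genetic change separates them, and whether both came from the same dish was not stated in the sources used here.

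Nuclear receptors are transcription factors that bind DNA through a zinc-finger domain and, in most members, a small fat-soluble ligand through a second domain. Ligands include retinoids, thyroid hormone, vitamin D, bile acids, oxysterols, fatty acids and steroids, and receptors without a known natural ligand are called orphans. Many members bind DNA as a heterodimer with a retinoid X receptor, along spaced copies of a short core hexamer. In the intestine the family is known for control of lipid and bile acid handling, drug metabolism, calcium uptake and crypt renewal.

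Values are RPKM, reads scaled to transcript length and to the reads of the library, so levels can be compared between genes. The reads behind them were recovered from the values. The library totals inferred in this way were 9640364 reads (mRNA) and 11083302 reads (RNC-mRNA). Where 2 levels are given, that in total mRNA stands first. The translation ratio is log2((RNC-mRNA RPKM + 0.1) / (mRNA RPKM + 0.1)) minus its median over the 13402 expressed genes, those with a mean of at least 1 RPKM, so 0 is the median gene and 1 is a 2-fold difference. Each ratio has an exact 95% interval for counting error, taken from the reads without the pseudocount. With 1 library per level there is no replicate check and no test across samples, and an interval that excludes 0 compares these libraries only. Epithelial identity was checked first: EPCAM (244 and 273 RPKM), VIL1 (109 and 116) and CDX2 (79.8 and 87.8) were abundant, whereas KRT20, a marker of differentiated enterocytes, had 0.977 RPKM in total mRNA and 0.0500 RPKM in RNC-mRNA. Of markers of other cell types, all 4 fibroblast genes were expressed (summed level 56.6 and 34.7 RPKM), 1 of 4 leukocyte genes (summed level 4.21 and 4.11 RPKM) and 1 of 3 endothelial genes (summed level 4.76 and 2.04 RPKM). Their part in the results was not tested.

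Caco-2 cells expressed 26 of the 38 receptors, 12 of them at a mean of at least 10 RPKM and 14 between 1 and 10 RPKM. Of the remaining 12 genes, 9 lay below 1 RPKM and 3 were listed at 0 in both libraries. The family was a small part of the transcriptome, summing to 399 RPKM in total mRNA and 406 RPKM in RNC-mRNA, 0.0864% and 0.0878% of the summed RPKM. The most abundant 5 genes, NR2F6, NR2F2, ESRRA, RXRA and NR1H3, were the same in both libraries and held 54.1% and 55.8% of the family's RPKM. The libraries average over all cells, so a low level in every cell cannot be told apart from a high level in few.

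**Figure D1:**
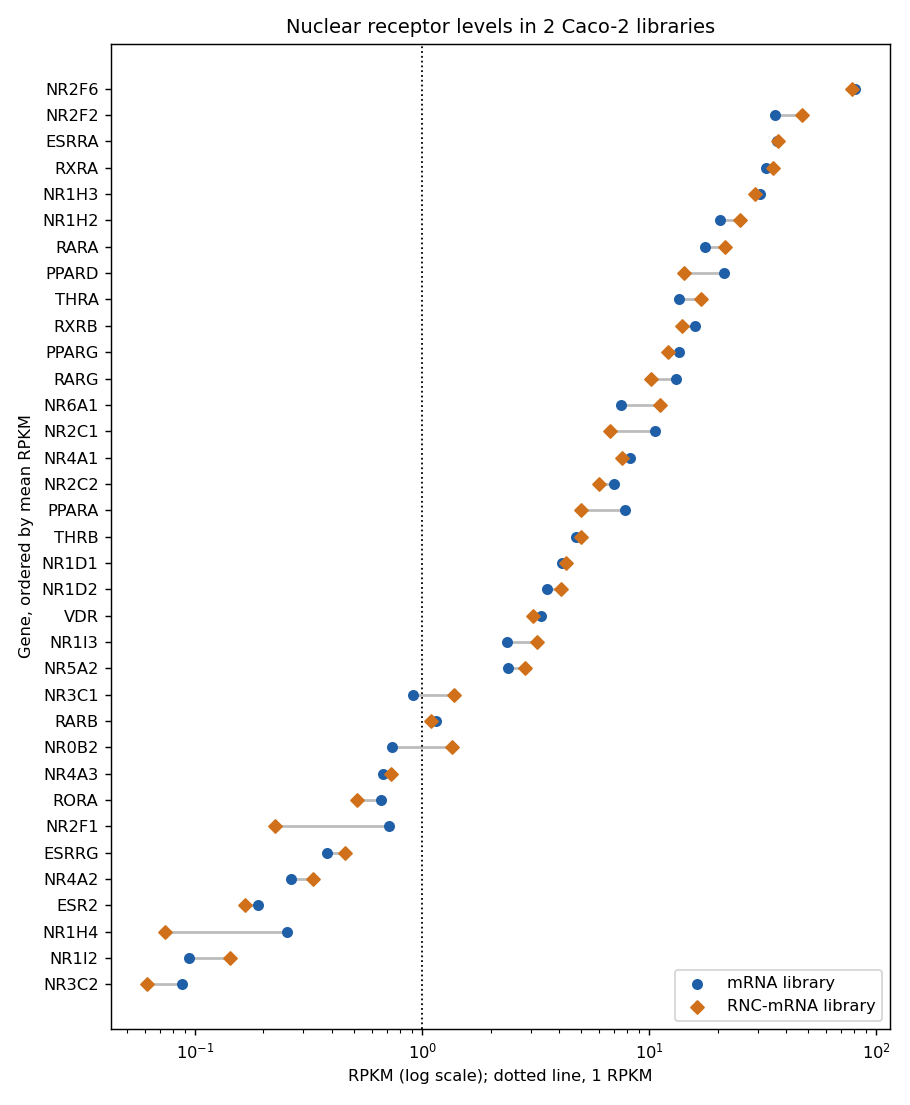
RPKM (log scale) of the 35 nuclear receptor genes with a value above 0, 1 row per gene, in the mRNA library (circles) and the RNC-mRNA library (diamonds), joined by a line. NR2F6 leads at 80.1 and 77.7 RPKM, the dotted line marks 1 RPKM, and the joined points lie close together except in a few genes such as NR2F1 (0.714 and 0.226 RPKM). RXRG, ESR1 and PGR, at 0 in both, are not drawn.

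Translation ratios of the expressed receptors lay close to those of the median gene. None of the 26 was at least 2-fold below it, against 11.8% of all expressed genes, and none was at least 2-fold above it, against 1.37%. The family's median ratio was 0.07 (order-statistic 95% interval over members -0.08 to 0.32), with 14 members above the median gene and 12 below. The sign of this median depended on the settings. It was -0.05 when ratios were centred on genes of at least 10 RPKM, a shift that lowers each ratio alike, and -0.11 with a filter at a mean of at least 5 RPKM, which leaves 17 members and moves the centre as well. The middle 50% of members spanned -0.11 to 0.33, where that of all expressed genes spanned -0.42 to 0.29. Counting intervals lay wholly above 0 for 7 members, against 31.5% of all expressed genes, and wholly below 0 for 5, against 31.4%. For the other 14 the interval spanned 0.

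**Figure D2:**
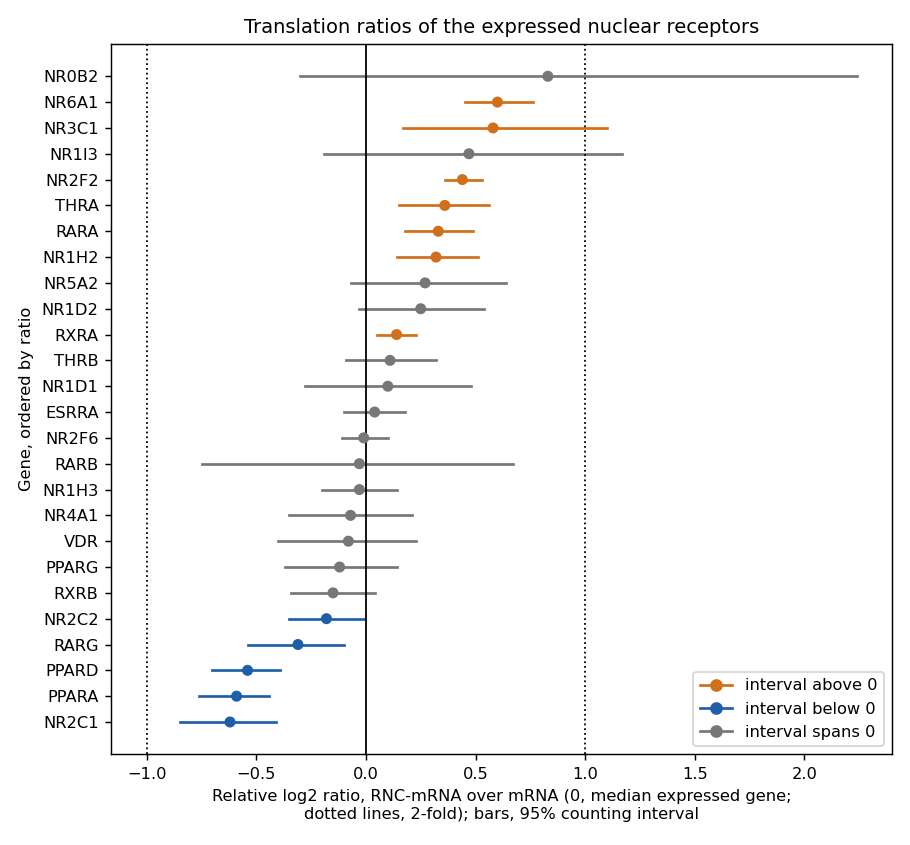
Relative log2 translation ratio of the 26 expressed nuclear receptors, ordered by value, with 95% counting intervals as bars. The ratios run from -0.62 for NR2C1 to 0.83 for NR0B2, and no point reaches the dotted 2-fold lines.

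The 7 receptors with intervals above 0 were NR6A1, NR3C1, NR2F2, THRA, RARA, NR1H2 and RXRA, and the 5 below were NR2C1, PPARA, PPARD, RARG and NR2C2. Of these, RXRA, NR2C2 and RARG depended on the centre. RXRA had an interval that included 0 when centred at the RNC-mRNA to mRNA ratio of the libraries' upper-quartile RPKM (RXRA ratio 0.07). The same held when centred on genes of at least 10 RPKM (ratio 0.02), and each of these centres leaves 6 above. RXRA also had an interval that included 0 with a filter at a mean of at least 5 RPKM (ratio 0.06). With no filter, NR2C2 (ratio -0.07) and RARG (ratio -0.21) had intervals that included 0. NR2F1, otherwise not counted as expressed, then had one below 0, so 4 lay below. NR2C2 also had an interval that included 0 when 10 reads were required in each library (ratio -0.17), which leaves 4 below. Other members entered. Centred on genes of at least 10 RPKM, NR2F6 (ratio -0.13) and RXRB (ratio -0.27) had intervals below 0, which makes 7 below. With no filter, 11 members had an interval above 0. Levels in both libraries ranked the 26 genes almost alike (Spearman's rho 0.979, Pearson's r of log2 levels 0.977, across genes, which share both libraries and are not replicates). The ratio had little relation to the recovered transcript length, which ran from 1271 to 10049 nt (rho -0.12), or to the mean level (rho -0.12).

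**Figure D3:**
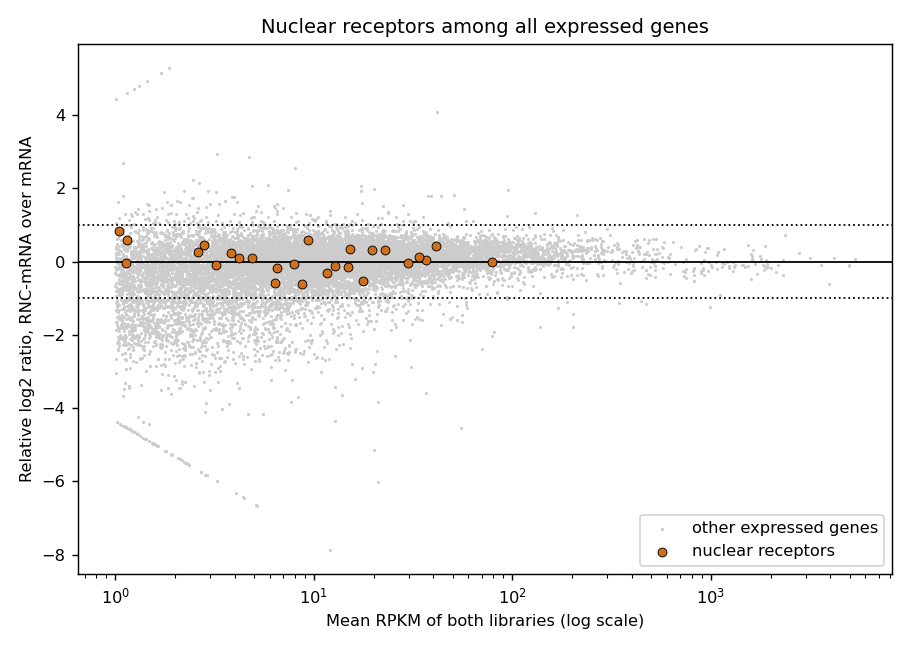
Relative log2 translation ratio against mean RPKM (log scale) for all 13402 expressed genes (grey) and the 26 expressed nuclear receptors (orange). The receptors lie in the band around 0 inside the dotted 2-fold lines, and the long lower tail of the grey points holds none of them.

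Among the retinoid X receptors, the shared partners of the family, RXRA had 32.8 RPKM in total mRNA and 35.2 RPKM in RNC-mRNA. RXRB had 15.9 and 13.9 RPKM, and RXRG was listed at 0 in both. RXRA was thus the more abundant partner in both libraries. Its ratio was 0.14 (counting interval 0.05 to 0.23) and that of RXRB was -0.15 (interval -0.34 to 0.04). The difference between the 2 genes was 0.29 on the log2 scale, with a counting interval of 0.08 to 0.51.

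The retinoic acid receptors, which bind all-trans retinoic acid and pair with a retinoid X receptor, were all expressed. RARA had 17.6 RPKM in total mRNA and 21.6 RPKM in RNC-mRNA (ratio 0.33, interval 0.18 to 0.49). RARG went the other way, with 13.0 and 10.2 RPKM (ratio -0.31, interval -0.54 to -0.10). RARA exceeded RARG by 0.65, with a counting interval of 0.38 to 0.92. RARB, whose own gene is a textbook target of retinoic acid, was lowest at 1.16 and 1.09 RPKM, on 34 and 37 reads, and its ratio of -0.03 could not be told from 0 at this depth (interval -0.75 to 0.67).

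The start of RARB is shown because it carries the repeat through which such receptors are known to bind. Promoter windows were taken from RefSeq (GRCh38.p14), which matched 34 of the 38 genes. NR2F6, VDR, NR0B2 and NR4A2 were not matched. The 250 bases before each annotated start were searched on both strands for the consensus core hexamer, AGGTCA. A variant known from natural sites, GGGTCA, was searched for too. AGTTCA was a further variant, and so was GGTTCA. Capitals mark the matches in the window of RARB at chr3:25428013-25428262 on the plus strand.
RARB: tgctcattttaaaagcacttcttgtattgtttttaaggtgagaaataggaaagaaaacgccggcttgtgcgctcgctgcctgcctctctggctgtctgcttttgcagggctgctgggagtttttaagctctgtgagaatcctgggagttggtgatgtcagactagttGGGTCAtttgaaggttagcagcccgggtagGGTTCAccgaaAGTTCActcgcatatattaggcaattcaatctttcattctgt

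GGTTCA and AGTTCA begin 53 and 42 bases before the start and lie in the same orientation with 5 bases between them, which is the spacing known for retinoic acid receptor heterodimers. Of the 84 windows of members, RARB's was the 1 window with such a direct repeat at a spacing of up to 5 bases (1.19%), against 0.478% of all 35116 windows. At least 1 hexamer was found in 39.3% of members' windows and in 33.8% of all windows. A match says only that the letters are there.

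The thyroid hormone receptors were both expressed, with THRA above THRB. THRA had 13.6 RPKM in total mRNA and 16.9 RPKM in RNC-mRNA (ratio 0.36, interval 0.15 to 0.56). THRB had 4.77 and 5.02 RPKM (ratio 0.11, interval -0.09 to 0.32), and the difference between them, 0.24, had an interval that included 0 (-0.05 to 0.54). THRA and the clock receptor gene NR1D1 overlap on opposite strands. The protocol in the labels names no strand-preserving step, so reads of the overlap cannot be assigned.

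VDR, the vitamin D receptor, had 3.35 RPKM in total mRNA and 3.08 RPKM in RNC-mRNA, with a ratio of -0.08 (interval -0.40 to 0.23). The xenobiotic receptors, which sense drugs and steroids and induce detoxifying enzymes, were low. NR1I3 (CAR) had 2.36 and 3.20 RPKM on 32 and 50 reads, and its ratio of 0.47 had an interval of -0.19 to 1.17. NR1I2 (PXR) had 0.0939 and 0.143 RPKM, on 4 and 7 reads. NR1I3 shares exon positions with TOMM40L on the other strand, which had 7.98 and 12.7 RPKM.

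The oxysterol receptors were among the more abundant members, whereas the bile acid receptor was near the detection limit. NR1H3 (LXR alpha) had 30.7 RPKM in total mRNA and 29.2 RPKM in RNC-mRNA, and its ratio was -0.03 (interval -0.20 to 0.14). NR1H2 (LXR beta) had 20.5 and 24.95 RPKM (ratio 0.32, interval 0.14 to 0.51) and exceeded NR1H3 by 0.35, with an interval of 0.10 to 0.60. NR1H4 (FXR), which in enterocytes is known to switch on bile acid export, had 0.254 and 0.0736 RPKM on 6 and 2 reads. NR0B2 (SHP), a receptor that lacks a DNA-binding domain and is a known FXR target, had 0.735 and 1.35 RPKM on 9 and 19 reads. Its ratio of 0.83 had an interval of -0.30 to 2.24 and was 0.47 with a pseudocount of 1 RPKM.

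The fatty acid receptors held a smaller share of the family in RNC-mRNA (7.72%) than in total mRNA (10.7%). PPARD, which is widely expressed, had 21.3 RPKM in total mRNA and 14.2 RPKM in RNC-mRNA (ratio -0.54, interval -0.70 to -0.39). PPARA, a regulator of fatty acid oxidation, had 7.80 and 5.001 RPKM (ratio -0.59, interval -0.76 to -0.44). PPARG, known for its role in fat storage and colonocyte differentiation, had 13.5 and 12.1 RPKM, and its ratio was nearer to 0 (-0.12, interval -0.37 to 0.14). PPARG exceeded PPARA by 0.49 (interval 0.18 to 0.79) and PPARD by 0.43 (interval 0.12 to 0.73). PPARD and PPARA differed by 0.06, with an interval of -0.16 to 0.28.

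The clock receptors repress or activate the same response elements in the circadian loop. The repressors NR1D1 (REV-ERB alpha; 4.11 and 4.29 RPKM) and NR1D2 (REV-ERB beta; 3.53 and 4.10 RPKM) were expressed at like levels, with ratios of 0.10 and 0.25 whose intervals spanned 0. The activator RORA had 0.660 and 0.517 RPKM and was not counted as expressed.

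Steroid receptors were nearly absent. NR3C1, the glucocorticoid receptor, was the 1 expressed gene of 5, with 0.911 RPKM in total mRNA and 1.37 RPKM in RNC-mRNA, on 64 and 111 reads (ratio 0.58, interval 0.17 to 1.10). The mineralocorticoid receptor NR3C2 had 0.0879 and 0.0612 RPKM, and the estrogen receptor beta gene ESR2 had 0.190 and 0.165 RPKM. ESR1 and PGR, the estrogen receptor alpha and progesterone receptor genes, were listed at 0 in both libraries. A count of 0 allows up to 3 reads, which for a transcript of 2000 nt would be 0.156 RPKM in total mRNA and 0.135 RPKM in RNC-mRNA.

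The estrogen-related receptors share sequence with the estrogen receptors, do not bind estrogen and are known for control of mitochondrial genes. ESRRA was the third most abundant receptor by its mean level, with 36.7 RPKM in total mRNA and 36.8 RPKM in RNC-mRNA (ratio 0.04, interval -0.10 to 0.18). ESRRG had 0.382 and 0.459 RPKM. The reads of ESRRA are uncertain to the extent that its pseudogenes ESRRAP1 and ESRRAP2 resemble it and that its exons meet TRMT112 (183 and 217 RPKM) on the other strand.

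The NR2 orphan receptors made up 33.6% of the family's RPKM in total mRNA and 34.0% in RNC-mRNA, and held both high and low ratios. NR2F6 (EAR2), the most abundant member, had 80.1 and 77.7 RPKM, a ratio of -0.01 (interval -0.11 to 0.10). NR2F2 (COUP-TFII), a developmental regulator, had 35.6 RPKM in total mRNA and 47.2 RPKM in RNC-mRNA, and its ratio of 0.44 (interval 0.36 to 0.53) rested on 1753 and 2672 reads. The testicular receptors lay lower. NR2C1 (TR2) had 10.6 and 6.70 RPKM, the lowest ratio of the expressed members (-0.62, interval -0.85 to -0.41), and NR2C2 (TR4) had 7.01 and 6.03 RPKM (ratio -0.18, interval -0.35 to -0.01). NR2F2 exceeded NR2C1 by 1.07 (interval 0.84 to 1.31), the largest difference between 2 expressed members of a class, and NR2C2 exceeded NR2C1 by 0.45 (interval 0.17 to 0.73).

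NR2F1 (COUP-TFI), below the expression line at 0.714 RPKM in total mRNA and 0.226 RPKM in RNC-mRNA, had a ratio below the 2-fold line (-1.28, interval -3.00 to -0.40, on 22 and 8 reads). It lies against NR2F1-AS1, an antisense gene whose exons overlap its own.

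Of the NR4A receptors, immediate early genes that act without a known natural ligand, NR4A1 (NUR77) had 8.21 RPKM in total mRNA and 7.61 RPKM in RNC-mRNA. Its ratio was -0.07 (interval -0.35 to 0.21). NR4A3 had 0.673 and 0.727 RPKM and NR4A2 had 0.264 and 0.332 RPKM. Both lay below 1 RPKM in each library.

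NR5A2 (LRH-1), a regulator of bile acid genes and crypt renewal, had 2.39 and 2.83 RPKM (ratio 0.27, interval -0.07 to 0.64). NR6A1 (GCNF), known as a repressor of pluripotency genes in germ cells and embryos, had 7.53 RPKM in total mRNA and 11.1 RPKM in RNC-mRNA. On 552 and 940 reads its ratio was 0.60 (interval 0.45 to 0.76).

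**Figure D4:**
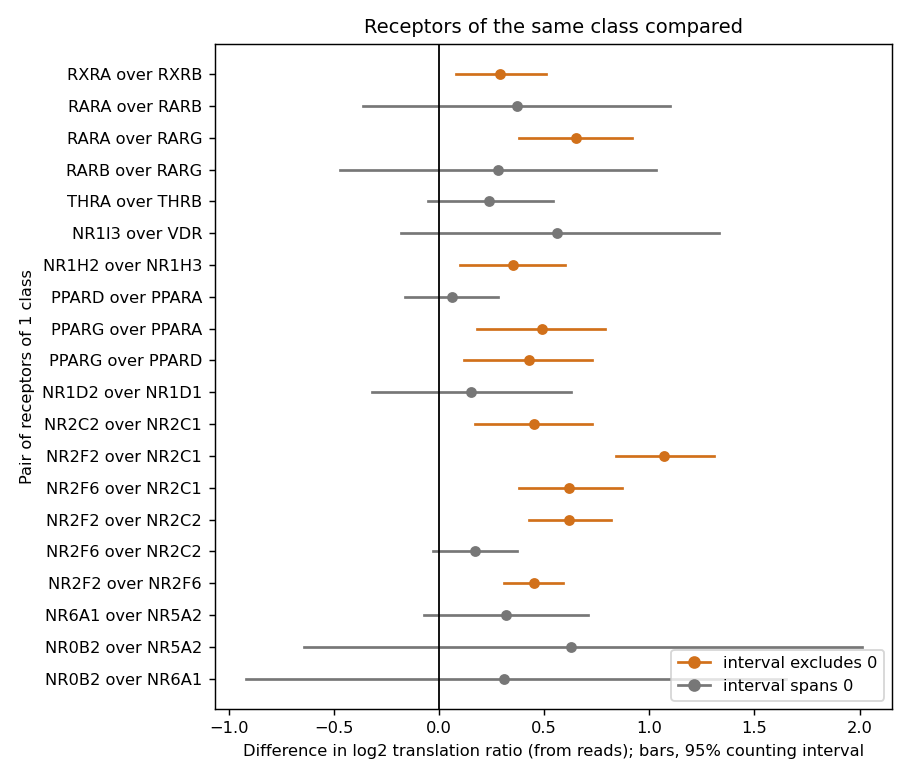
Difference in log2 translation ratio, computed from reads, for the 20 pairs of expressed receptors of the same class, with 95% counting intervals as bars. The interval excluded 0 in 10 pairs and spanned it in 10, and NR2F2 over NR2C1 (1.07) is farthest to the right of those that excluded 0.

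In all, 20 such pairs within a class were compared and 10 had a counting interval that excluded 0, including RXRA over RXRB, RARA over RARG and NR1H2 over NR1H3. These intervals are not adjusted for the number of pairs and hold counting error alone. Exons of 12 of the 26 expressed members overlap a gene on the other strand in GENCODE release 29, among them RXRB with SLC39A7 (66.5 and 72.9 RPKM), NR1H3 with ACP2 (36.6 and 49.6 RPKM) and RARB with TOP2B (13.9 and 15.5 RPKM). The share of their reads that came from those neighbours was not tested.

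CpG content was counted in the same upstream windows. With the highest value over a gene's starts, the median was 22.0 CpG in 250 bases for 23 expressed members (range 2 to 59) and 12.0 for 11 members below the expression line (range 1 to 40), so the ranges overlapped widely. Over all 14665 genes of the table with a window, the medians were 23.0 for expressed and 7.0 for other genes. ESRRA and NR1H4 are shown as the most abundant expressed and the least abundant detected member with a single annotated start, and capitals mark each CG. The windows lie at chr11:64305274-64305523 and chr12:100503110-100503359 (GRCh38.p14, plus strand).
ESRRA: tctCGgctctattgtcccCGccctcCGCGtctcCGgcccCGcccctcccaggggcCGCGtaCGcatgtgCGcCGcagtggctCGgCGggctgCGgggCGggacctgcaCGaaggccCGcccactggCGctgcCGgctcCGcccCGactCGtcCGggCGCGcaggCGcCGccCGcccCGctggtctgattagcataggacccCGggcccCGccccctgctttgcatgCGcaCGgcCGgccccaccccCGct
NR1H4: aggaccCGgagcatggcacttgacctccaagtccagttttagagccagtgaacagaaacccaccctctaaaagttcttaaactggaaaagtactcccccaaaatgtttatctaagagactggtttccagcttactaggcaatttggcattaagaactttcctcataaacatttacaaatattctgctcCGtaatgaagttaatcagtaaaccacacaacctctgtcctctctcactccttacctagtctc
The ESRRA window holds 35 CpG and the NR1H4 window 2. Other members broke this order: NR1I3 was expressed with 2 CpG, while NR3C2 had 40 and RXRG 24 without reaching 1 RPKM.

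Receptors act through coregulator proteins, and the coactivators lay higher than the receptors. Of 15 expressed coactivator genes (of 16), 12 lay above the median gene and 3 below, with a median of 0.32 (interval over genes 0.04 to 0.52). Over all settings run that median ran from 0.20 to 0.40, and the ranges given for the other lists are over the same settings. The counting interval lay above 0 in 11 of the 15 coactivators, against 31.5% of all expressed genes, and below 0 in none, against 31.4%. Such intervals narrow as reads rise, and the counts were not matched for level. The p160 coactivator NCOA2 was highest, with 5.05 RPKM in total mRNA and 10.0 RPKM in RNC-mRNA (ratio 1.01, counting interval 0.83 to 1.23). The methyltransferase PRMT1 (170 and 237 RPKM, ratio 0.52) and NCOA4 (64.9 and 87.5 RPKM, ratio 0.47) were most abundant, and the acetyltransferase KAT2B was lowest (-0.20, interval -0.54 to 0.12). PPARGC1A, a PPAR gamma coactivator, was not expressed (0.0493 and 0.0714 RPKM), whereas PPARGC1B (2.909 and 2.904 RPKM) and PPRC1 (21.05 and 22.73 RPKM) of the same list were. The difference between coactivators and receptors was not tested.

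All 9 corepressor genes were expressed, with a median of 0.07 (range -0.05 to 0.17). NRIP1, a ligand-dependent corepressor, was highest (2.98 and 4.78 RPKM, ratio 0.70, interval 0.48 to 0.96). GPS2 was most abundant, with 51.4 and 61.6 RPKM (ratio 0.30). The chaperones that hold steroid receptors ready for ligand were abundant, led by HSPA8 (998 and 1166 RPKM, ratio 0.26) and HSP90AB1 (605 and 632 RPKM, ratio 0.10). Their median was 0.21 (range 0.09 to 0.31) in 7 genes, from FKBP5 (-0.04) to FKBP4 (0.37).

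Genes that carry, make or break down ligands had a median of 0.13 in 18 expressed members of 27 (range -0.04 to 0.13), 11 above and 7 below the median gene. The retinoic acid carrier CRABP2 had 214 RPKM in total mRNA and 237 RPKM in RNC-mRNA (ratio 0.19), and the retinol carrier RBP4 had 125 and 155 RPKM (ratio 0.35). CRABP1 was highest (0.41).

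Known targets of the receptors were at varied levels. Fatty acid receptor targets lay below the median gene in 6 of 7 expressed cases (median -0.44, range -0.56 to -0.34, interval over genes -0.81 to 0.13). The fatty acid-binding protein FABP1 (137 and 90.7 RPKM, ratio -0.56) was most abundant, CPT1A was lowest (-0.81) and ACADM highest (0.13). Steroid receptor targets lay below it in 5 of 6 cases (median -0.44, range -0.78 to -0.34, interval over genes -0.85 to 0.32), from the trefoil peptide TFF1 (38.8 and 20.9 RPKM, -0.85) to ZBTB16 (0.32), with the kinase SGK1 at -0.36. None of the expressed genes in these 2 lists was at least 2-fold from the median gene.

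Bile acid receptor targets were weakly expressed, with 3 of 6 genes above 1 RPKM and a median of -0.76 (range -0.88 to -0.50). SLC51A, a subunit of the basolateral bile acid exporter, had 2.21 RPKM in total mRNA and 0.372 RPKM in RNC-mRNA (ratio -2.25, interval -4.08 to -1.25), its partner SLC51B had 4.41 and 2.50 RPKM (-0.76), and FABP6 was highest (0.08). Oxysterol receptor targets went both ways in 5 expressed genes (median 0.24, range 0.01 to 0.29). The cholesterol exporter ABCA1 was highest (4.15 and 6.38 RPKM, ratio 0.65) and ABCG1 was lowest (1.73 and 0.665 RPKM, ratio -1.22, interval -2.12 to -0.61). LPCAT3 had a ratio of 0.49 and SREBF1 of -0.48.

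Of 10 xenobiotic and vitamin D receptor targets, 4 were expressed, with a median of -0.22 and a range of -0.64 to 0.15 that holds both signs. They ran from the drug-metabolising CYP3A5 (2.77 and 0.677 RPKM, ratio -1.85, interval -2.70 to -1.34) to the drug exporter ABCB1 (1.12 and 1.99 RPKM, ratio 0.81). The calcium pump ATP2B1 had 32.6 and 36.1 RPKM (ratio 0.19). Retinoic acid receptor targets had a median of -0.03 in 5 expressed genes, 1 of which was RARB itself, with a range of -0.15 to 0.14. They ran from the retinol transporter STRA6 (16.1 and 9.83 RPKM, -0.67) to the transglutaminase TGM2 (17.99 and 22.99 RPKM, 0.39), with DHRS3 at 0.11. Clock receptor targets had a median of 0.18 in 5 genes (range -0.06 to 0.28), from NPAS2 (-0.74) to CRY1 (0.72), with ARNTL (BMAL1) at 0.18 and NFIL3 at -0.14. Some genes stand in more than 1 list, such as FABP1 and FKBP5.

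**Figure D5:**
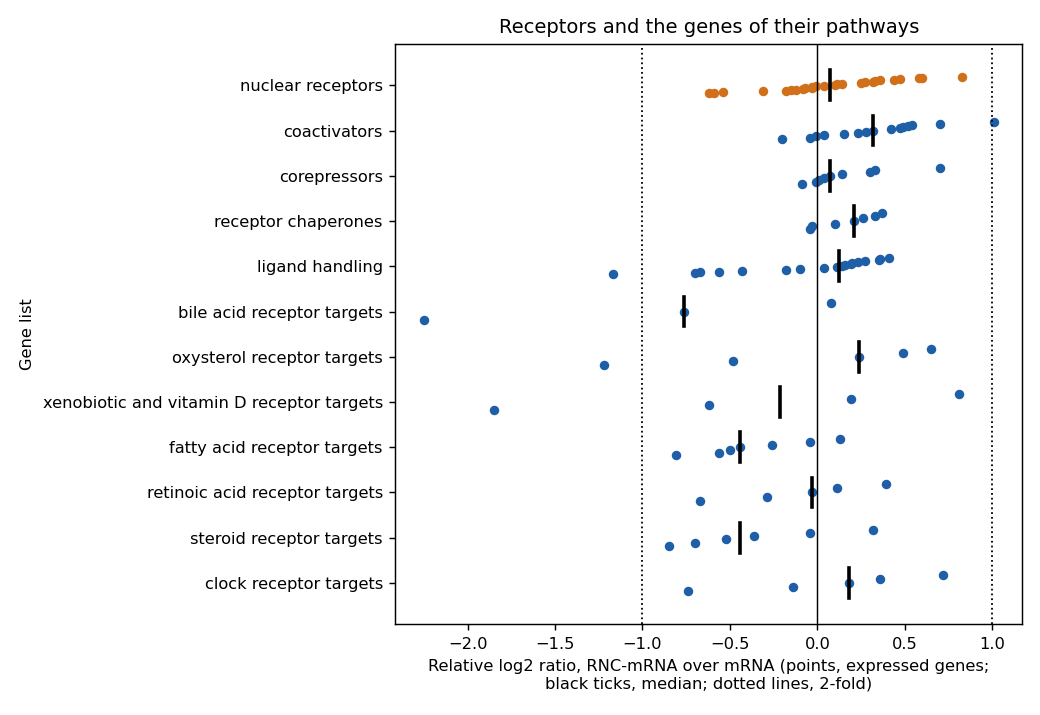
Relative log2 translation ratio of each expressed gene (points) and the median (black tick) for the nuclear receptors and 11 lists of genes of their pathways. The receptors (median 0.07) lie inside the dotted 2-fold lines, as do most coregulators, NCOA2 (1.01) reaches the upper line, and SLC51A, ABCG1 and CYP3A5 are among the points beyond the lower line.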

How the data were processed

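Poly(A) RNA from total RNA and from ribosome-nascent chain complexes of Caco-2 cells was sequenced, 1 library each, per the labels. The deposited values are RPKM for 1 RefSeq record per gene, computed by the authors on hg19, per the file headers and the submitters' processing notes. The aligner, counting method and handling of shared reads are not given in the sources used here.

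Library totals were inferred as the whole numbers with the most matches, that is, records of known GENCODE release 29 length that held 1 to 7 whole reads. The chosen total had 649 matches in mRNA, against 172 for the next best. In RNC-mRNA it had 543, against 359. For each gene, reads were taken at the length, nearest the reference, at which both RPKM values were whole reads within rounding of the 7 printed digits and a relative error of 2e-07. Where the record had no reference length, the fewest reads were used. Recovery was tested on simulated data in which each gene had a reference length. The median expressed gene held 311 and 338 reads. Intervals are exact Clopper-Pearson (single genes) or conditional odds ratio (pairs) intervals, computed with scipy 1.17.1 in Python 3.11.15. PCR reads are not independent molecules, so intervals and the floor of 3 reads cover counting error only.

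Expressed genes had a mean of at least 1 RPKM. No test across samples is possible, and a 2-fold difference was used to describe size. The members and gene lists were chosen with earlier results of these data known. All members are reported. Of each pathway list, the 2 most abundant genes, those of highest and lowest ratio and those at least 2-fold from the median gene are named, and PPARGC1A, the genes that overlap members and other genes outside this rule were chosen after their values were seen. Some genes that the rule names are not reported here. Alternatives covered the pseudocount, the filter, the centre, NM records and a minimum of 10 reads.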

Additional observations from a re-analysis of the deposited data

How the results depend on the processing

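No paired analysis was possible because each level has 1 library. Each result was recomputed under 9 alternatives: other pseudocounts, filters, centres, NM records alone and a minimum of 10 reads in each library. Of 224 recomputed member ratios, 219 stayed inside their counting interval, 5 moved beyond it and 0 of those whose interval excluded 0 changed sign. In 18 of the 26 expressed members the sign was the same under every alternative run. VDR, RARB, NR1H3, NR1D1, NR2F6, NR4A1, THRB and ESRRA changed sign, and each had an interval that spanned 0. No alternative put a member at least 2-fold above the median gene. With no filter, 1 member was at least 2-fold below it (NR2F1) and 11 had an interval above 0, in place of 7. The number with an interval above 0 was otherwise 5 to 7, and the number below 0 was 4 to 7. With a mean of at least 5 RPKM, 17 members were expressed, in place of 26, the members' median was -0.11 and that of corepressors -0.04. Centred on genes of at least 10 RPKM, which lowers each ratio by 0.12, the median of corepressors was -0.05. The bile acid receptor target list has no value at a mean of at least 5 RPKM, since no gene passes. Depth limits the genes below 1 RPKM, most of which rest on few reads, as does NR0B2 on 9 and 19.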
